A study of Mus musculus with 2 samples.

Results

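The contactin family was followed here through 10 genes of the mouse, the 5 contactins *Cntn1*, *Cntn3*, *Cntn4*, *Cntn5* and *Cntn6* and the 5 contactin-associated proteins *Cntnap2*, *Cntnap4*, *Cntnap5a*, *Cntnap5b* and *Cntnap5c*. All 10 were found by symbol among the 32286 features of the count table, and 26032 of the features had at least 1 UMI (unique molecular identifier, the tag that marks 1 captured RNA molecule). The members were chosen by levels already measured in these nuclei across neuron types and glia, so the levels in those groups are a description and carry no test.

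The libraries were made from flash-frozen vagus nerve ganglia, which hold the cell bodies of the sensory neurons of the vagus nerve. All mice were of the strain C57BL/6J, carried the genotype Rosa26-floxed-STOP-Cas9-eGFP, were bought at 8 to 9 weeks of age and ate a standard chow diet. Every mouse had received AAVrg-Cre, a retrogradely transported virus carrying Cre, in the liver 4 weeks before collection, and no group without the virus entered the series. The female library pooled 14 ganglia of 7 mice and held 3791 nuclei, with a median of 2381 UMIs, and the male library pooled 16 ganglia of 8 mice and held 4923 nuclei, with a median of 2658. Because each sex was 1 pool and 1 library, no difference between them could be tested, and every interval below is a 95% interval of counting error only.

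Contactins are adhesion molecules of the immunoglobulin superfamily that are held on the cell surface by a lipid anchor, and they bind other adhesion molecules and receptor phosphatases. Contactin-associated proteins cross the membrane and belong to the neurexin superfamily. In myelinated axons, CNTN1 and CNTNAP1 form the axonal side of the paranodal junction beside the node of Ranvier, whereas CNTN2 and CNTNAP2 hold the Kv1 potassium channels at the juxtaparanode. CNTN3 to CNTN6 and the remaining contactin-associated proteins are better known from neurite growth and synapse formation in the brain.

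Nuclei were grouped into 20 rebuilt clusters without use of the 10 members, their partner genes or sex-linked genes, and clusters were named from marker genes. The neuron-like class held 671 female and 1601 male nuclei, the Schwann cell-like class 542 and 696, and the satellite glia-like class 290 and 770. Within the neuron-like class, 875 nuclei were of the nodose type (neurons of placodal origin), 556 of the jugular type (neurons of neural crest origin) and 142 of the sympathetic type, of which only 6 came from the female library. The other 699 neuron-like nuclei lay in 2 sub-clusters that were left unnamed, sub-cluster 1 with shallow nuclei and sub-cluster 4 led by genes of satellite glia. Neuron-like nuclei were deeper (median 7221 UMIs) than glia-like nuclei (median 2110), and 408 cerebellar granule cell-like nuclei, 384 of them in the female library, carried the markers of a cell type that a vagal ganglion does not hold. Their levels are given apart, and 965 nuclei in 3 clusters (14, 15 and 17) stayed unnamed. The libraries shared 8 cell barcodes.

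The 3 *Cntnap5* genes are close copies and could exchange reads, so their coding sequences were compared first. *Cntnap5a* and *Cntnap5b* shared an unbroken stretch of 91 identical bases, *Cntnap5a* and *Cntnap5c* one of 86 bases, and *Cntnap5b* and *Cntnap5c* one of 68 bases. Around the longest stretch common to all 3 (56 bases), 86 of 90 bases were the same in every gene. Those 90 bases, coding positions 1499 to 1588 of each transcript (GENCODE vM21, counted from the A of the start codon), are printed 5′ to 3′ with the shared bases in capitals.
Cntnap5a: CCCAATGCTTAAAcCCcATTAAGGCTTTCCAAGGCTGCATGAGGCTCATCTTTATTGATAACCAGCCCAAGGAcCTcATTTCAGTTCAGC
Cntnap5b: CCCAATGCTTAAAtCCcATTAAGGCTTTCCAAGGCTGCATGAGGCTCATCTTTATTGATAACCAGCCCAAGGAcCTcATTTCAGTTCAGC
Cntnap5c: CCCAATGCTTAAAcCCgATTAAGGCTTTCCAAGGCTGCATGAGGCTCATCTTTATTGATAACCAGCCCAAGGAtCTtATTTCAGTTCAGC
By the study's methods the reads were longer than this window, so a whole read also covers bases outside it. A read that overlaps the window could still be hard to place in 1 gene or be dropped as ambiguous. How many were dropped was not tested. Introns were counted as well, and their sequence was not compared here. The patterns of the 3 genes over neurons are given further down. No other pair of members shared more than 22 coding bases.

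All 10 members are protein-coding and very long, from 291 kb (*Cntn1*) to 2245 kb (*Cntnap2*) in the GENCODE vM21 annotation of GRCm38. On that build, *Cntn1* (ENSMUSG00000055022) lies on chromosome 15 at 92051165 to 92341967 and *Cntn5* (ENSMUSG00000039488) on chromosome 9 at 9660891 to 10904775. Chromosome 6 carries 4 members, *Cntnap2* (ENSMUSG00000039419) at 45059357 to 47304213, *Cntn3* (ENSMUSG00000030075) at 102162655 to 102573101, *Cntn6* (ENSMUSG00000030092) at 104492790 to 104863406 and *Cntn4* (ENSMUSG00000064293) at 105677660 to 106699310. *Cntnap5b* (ENSMUSG00000067028) and *Cntnap5a* (ENSMUSG00000070695) lie on chromosome 1, at 99772765 to 100485942 and at 115684756 to 116587323. *Cntnap4* (ENSMUSG00000031772) lies on chromosome 8 at 112570043 to 112882717 and *Cntnap5c* (ENSMUSG00000038048) on chromosome 17 at 57769570 to 58410355. Levels of different genes are ranked only per gene length, whereas ratios of UMIs between genes are compared across groups of nuclei. Per 10000 UMIs and 100 kb of gene, neuron-like nuclei held 2.59 UMIs of *Cntnap2* and 2.12 of *Cntn5*, followed by *Cntn1* (0.918), *Cntn3* (0.882), *Cntnap5a* (0.482), *Cntnap5c* (0.297), *Cntnap4* (0.273), *Cntn6* (0.14), *Cntn4* (0.108) and *Cntnap5b* (0.07). On this scale *Cntn1* and *Cntn3* stood side by side.

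Across neurons and glia, 9 of the 10 members were at least 2-fold higher in neuron-like than in glia-like nuclei (Schwann cell-like and satellite glia-like together), and none was at least 2-fold lower. Of 18177 genes with at least 20 UMIs in these nuclei, 17.8% were at least 2-fold higher and 15.5% at least 2-fold lower. The members were chosen from this contrast, so the count describes them and is not evidence about the family. The median log2 ratio was 3.17 over the members and -0.12 over all genes tested. All 9 stayed past 2-fold in each library alone.

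*Cntnap2*, the Kv1-clustering partner of CNTN2, was at 61.0 UMIs per 10000 in the neuron-like nuclei of the female library and 56.8 in those of the male library. In glia-like nuclei it was at 4.55 and 5.84. The ratio over both libraries was 10.8-fold (log2 3.43, interval 3.38 to 3.48). After each nucleus was thinned to 1000 UMIs, 84.3% of neuron-like nuclei held a UMI of *Cntnap2*. Glia-like nuclei held one in 24.3% and macrophage-like nuclei in 23.9%. The part of RNA from other cells in the glial share was not tested. As deposited, at median depths of 7221, 2110 and 1802 UMIs, the shares were 96.1%, 44.6% and 39.6%.

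*Cntn5* was at 30.2 (female) and 24.8 (male) UMIs per 10000 in neuron-like nuclei, against 1.53 and 2.50 in glia-like nuclei. Its ratio over both libraries was 12.3-fold (log2 3.62, interval 3.54 to 3.69). *Cntn3*, *Cntn4*, *Cntnap5a* and *Cntnap5c* were 8.73- to 9.62-fold higher in neuron-like nuclei. *Cntn6*, *Cntnap4* and *Cntnap5b*, the members with the fewest UMIs, were 5.40- to 6.83-fold higher.

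*Cntn1*, which pairs with CNTNAP1 at the paranode, was the exception. It was at 2.72 (female) and 2.64 (male) UMIs per 10000 in neuron-like nuclei, against 1.54 and 1.77 in glia-like nuclei. The ratio was 1.58-fold (log2 0.66, interval 0.57 to 0.75). In both libraries neurons were higher, but by less than for any other member. With the macrophage-like level taken off both groups the log2 ratio was 1.78, past 2-fold. Satellite glia-like nuclei alone had 2.40 (female) and 2.26 (male). Nodose-type neurons taken whole, at 1.93 and 2.23, were not above them, whereas jugular-type neurons, at 3.46 and 3.42, were. This did not hold in every sub-cluster. Over both libraries, jugular-type sub-clusters 10, 12, 6, 11 and 9 were at 7.53, 4.73, 2.45, 1.45 and 0.789. Sub-cluster 10 held 1823 of the 3115 jugular-type UMIs. Nodose-type sub-clusters 3, 5, 2 and 8 were at 5.07, 1.37, 0.912 and 0.464.

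**Figure D1:**
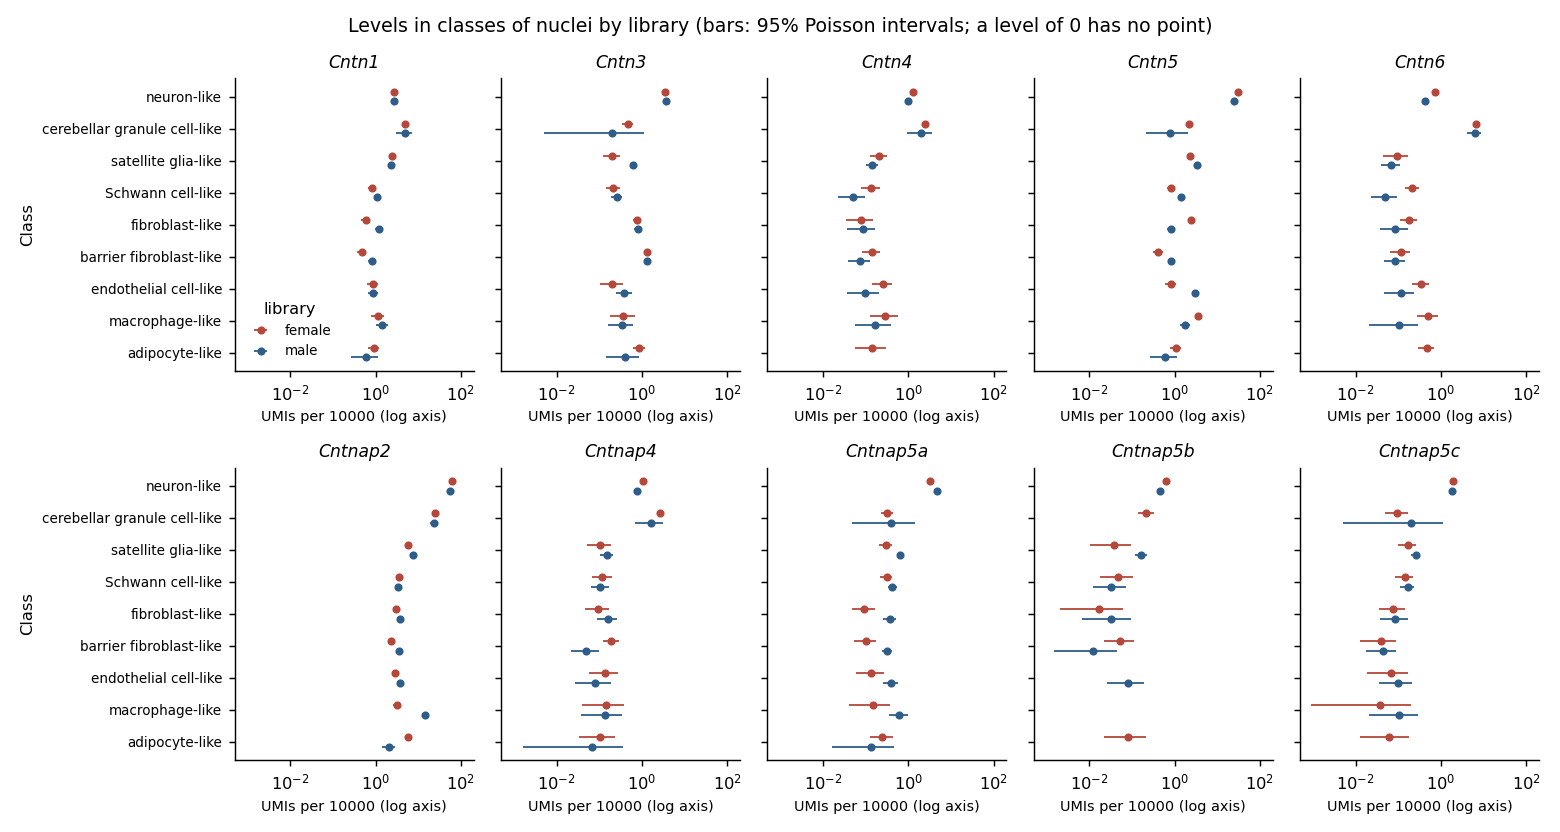
Levels of the 10 members (UMIs per 10000 UMIs, log axis) in 9 named classes of nuclei, female library in red and male library in blue, with 95% Poisson intervals; a level of 0 has no point. *Cntnap2* and *Cntn5* stand highest in neuron-like nuclei in both libraries, at 61.0 and 56.8 and at 30.2 and 24.8, whereas *Cntn6* stands highest in cerebellar granule cell-like nuclei, at 6.62 and 6.20.

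Single nuclei carried much of the signal in some small classes. In macrophage-like nuclei of the male library *Cntnap2* was at 14.6 UMIs per 10000, but 1 nucleus held 76.1% of those UMIs, and without it the level was 3.56, close to the 3.22 of the female library. In fibroblast-like nuclei of the female library 1 nucleus held 54.3% of the *Cntn5* UMIs, and the level fell from 2.49 to 1.14 without it. Whether these are doublets was not tested.

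Among sensory neurons, *Cntn5* was, over both libraries together, the only member at least 2-fold different between the jugular and nodose types, although 6 members were when jugular-type sub-cluster 10 was left out. It was at 58.8 UMIs per 10000 (interval 58.0 to 59.6) in nodose-type nuclei of the female library and 51.6 (51.1 to 52.2) of the male library. In jugular-type nuclei it was at 1.15 in both libraries (1.04 to 1.28 and 1.07 to 1.24). Nodose-type nuclei were thus higher in each library, and 46.7-fold higher over both (log2 -5.54 for jugular over nodose, interval -5.63 to -5.46). The equal jugular-type levels had different sources. Sub-cluster 10 held 334 of the 376 jugular-type UMIs in the female library and 309 of 670 in the male one. The equal levels therefore do not show a fold of the same size in both libraries. Without sub-cluster 10 the fold was not computed for each library, and the jugular-type sub-clusters are given further down. Of 16631 genes, 7.54% were at least 2-fold higher in jugular-type nuclei and 8.13% at least 2-fold lower. These shares include sub-cluster 10, and the share of all genes without it was not computed.

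The share of nuclei with a UMI gave the same order. At 1000 UMIs a nucleus, 62.5% of nodose-type and 5.22% of jugular-type nuclei held a UMI of *Cntn5*. Macrophage-like nuclei held one in 6.99%, and jugular-type sub-cluster 10 in 10.8%. As deposited, at median depths of 8955, 12488 and 1802 UMIs, the shares were 83.1%, 30.2% and 13.9%. Over both libraries, jugular-type nuclei (1.15 UMIs per 10000) were lower in *Cntn5* than satellite glia-like nuclei (3) but not Schwann cell-like nuclei (1.18) beyond counting error. The pooled glia-like level was 2.15. Schwann cell-like nuclei were below jugular-type nuclei in the female library (0.828 against 1.15) and above them in the male one (1.42 against 1.15). In female satellite glia-like nuclei (2.35), 1 nucleus held 42% of the *Cntn5* UMIs, and the level was 1.37 without it. Although *Cntn5* was not used in the grouping, it led the genes of neuron-like clusters 2 and 3 by fold, and it was at 0.694 in neuron-like cluster 16, which *Grik1* led.

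The other 9 members differed less between the sensory types, and several values turned on jugular-type sub-cluster 10, 102 of the 556 nuclei. Its jugular name rests on 3 markers, while the jugular list as a whole had a mean log2 fold of -1.31 there over the other sub-clusters. Nodose-type sub-cluster 3 and jugular-type sub-cluster 11 also had means below 0 for their own list, -0.14 and -0.25, with 7 and 4 markers. *Cntnap2* was at 72.3 UMIs per 10000 in nodose-type and 39.8 in jugular-type nuclei (log2 -0.86, interval -0.88 to -0.84), and in the male library alone it and *Cntnap5c* passed 2-fold (log2 -1.01 and -1.03). *Cntnap5a*, *Cntnap5c*, *Cntnap5b* and *Cntn3* were also lower in jugular-type nuclei, with log2 values of -0.78, -0.77, -0.55 and -0.35. *Cntn1* went the other way, with 3.43 in jugular-type and 2.14 in nodose-type nuclei (log2 0.68, interval 0.60 to 0.76), but sub-cluster 10 held 1823 of the 3115 jugular-type UMIs, and without it the level was 1.94 (log2 -0.14, interval -0.24 to -0.04). *Cntn6* (log2 0.46), *Cntnap4* (0.19) and *Cntn4* (0.16) were slightly higher in jugular-type nuclei. Without sub-cluster 10, *Cntn6* was at 0.211 (log2 -1.15) and *Cntn4* at 0.641 (log2 -0.88), both below nodose-type nuclei, while *Cntnap4* stayed at log2 0.27. *Cntnap2*, *Cntnap5a*, *Cntnap5b* and *Cntnap5c* were then at -1.36, -1.06, -1.16 and -1.18, and *Cntn5* at -6.47. For *Cntn6*, *Cntn4* and *Cntn3* the direction turned when each nucleus was thinned to 1000 UMIs (log2 -0.48, -0.02 and 0.05), and *Cntn4* also turned between the libraries.

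The ratio of *Cntn5* to *Cntnap2* within a group does not use the group's total UMIs, and it differed between the types in each library. It is made from the same UMIs as the levels above and is no separate support. Per 100 UMIs of *Cntnap2*, nodose-type nuclei held 78.3 UMIs of *Cntn5* (interval 76.9 to 79.8) in female nuclei and 72.6 (71.7 to 73.6) in male nuclei. Jugular-type nuclei held 2.41 (2.17 to 2.67) and 3.27 (3.02 to 3.53). In the female library sub-cluster 10 held 334 of the 376 *Cntn5* and 8580 of the 15577 *Cntnap2* UMIs of the jugular type. In the male library it held 309 of 670 and 8827 of 20497. The ratio without it was not computed, so the near values do not show a like ratio in the other jugular-type nuclei. The whole family reached 142 UMIs per 10000 in nodose-type and 54.4 in jugular-type nuclei, and *Cntn5* made up 38.0% of the family's UMIs in the former and 2.12% in the latter.

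Nodose-type sub-clusters shared a high *Cntn5* level but differed in the *Cntnap5* genes. *Cntn5* was at 75.2 UMIs per 10000 in sub-cluster 2, at 44.5 in sub-cluster 5 (led by *Cartpt* and *Cckar*, a satiety peptide and the receptor for cholecystokinin), at 41.2 in sub-cluster 3 (led by *Eya4*) and at 30.3 in sub-cluster 8 (led by *Rmst*). In sub-cluster 2 it was at 75.2 in each library taken alone. None of the 4 fell to the jugular range.

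Sub-cluster 3 held the highest levels of *Cntnap5b* and *Cntnap5c* of all 12 neuron sub-clusters. *Cntnap5c* was at 5.68 UMIs per 10000 in its female and 5.72 in its male nuclei, and in sub-cluster 8 at 3.44 and 4.24, whereas sub-cluster 2 had only 0.285 and 0.402. *Cntnap5a* followed a different course. It was at 8.37 in sub-cluster 3 but at 0.557 in sub-cluster 8, the lowest of the 12. *Cntnap5b* was at 1.70 in sub-cluster 3 and 0.0981 in sub-cluster 8. The 3 close copies were thus together high in sub-cluster 3 and apart in sub-cluster 8. *Cntn1* was also high in sub-cluster 3 (4.95 in female and 5.11 in male nuclei) and low in sub-clusters 2 and 8 (0.912 and 0.464).

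Some jugular-type sub-clusters were high in other members. In sub-cluster 10, led by *Tafa1*, *Cntn1* was at 6.46 (female) and 8.38 (male) UMIs per 10000, the highest of the 12. *Cntn4* (3.17) and *Cntn6* (1.83) were highest there as well, and each was higher than in the next sub-cluster beyond counting error. In each library alone *Cntn6* was highest there too, with 1.93 and 1.74, whereas for *Cntn4* the unnamed sub-cluster 1 was slightly higher in the female library (3.12 against 3.02). *Cntnap2* was at 71.9 in sub-cluster 10, as high as in nodose-type nuclei (72.3).

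In sub-cluster 12, led by *Trpm8*, the cold and menthol receptor, *Cntnap4* was at 3.60 (female) and 3.05 (male) UMIs per 10000. That was the highest of the 12, ahead of sub-cluster 3 (2.14 and 1.94). *Cntn3* was at 8.01 and 8.28 there, and at 6.95 and 5.57 in sub-cluster 11, led by *Cdh9* and *Tafa4*. In the other jugular-type sub-clusters, 6, 9 and 10, *Cntn3* was at 1.39 to 1.91. Over both libraries, sub-cluster 11 also held the least *Cntnap2* (13.9) and *Cntn5* (0.279) of all neuron sub-clusters. *Cntn3* made up 24.3% of its family UMIs, against 2.45% in nodose-type nuclei. In the female library alone *Cntn5* was lower in sub-clusters 9 (0.0619) and 12 (0.202) than in sub-cluster 11 (0.246). *Cntn6* in sub-cluster 11 (0.0452) was not below sub-cluster 8 (0.0568) beyond counting error. Sub-cluster 6, with *Mrgprd* among its top genes, had little of *Cntnap5b* (0.0763) and *Cntn4* (0.339).

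**Figure D2:**
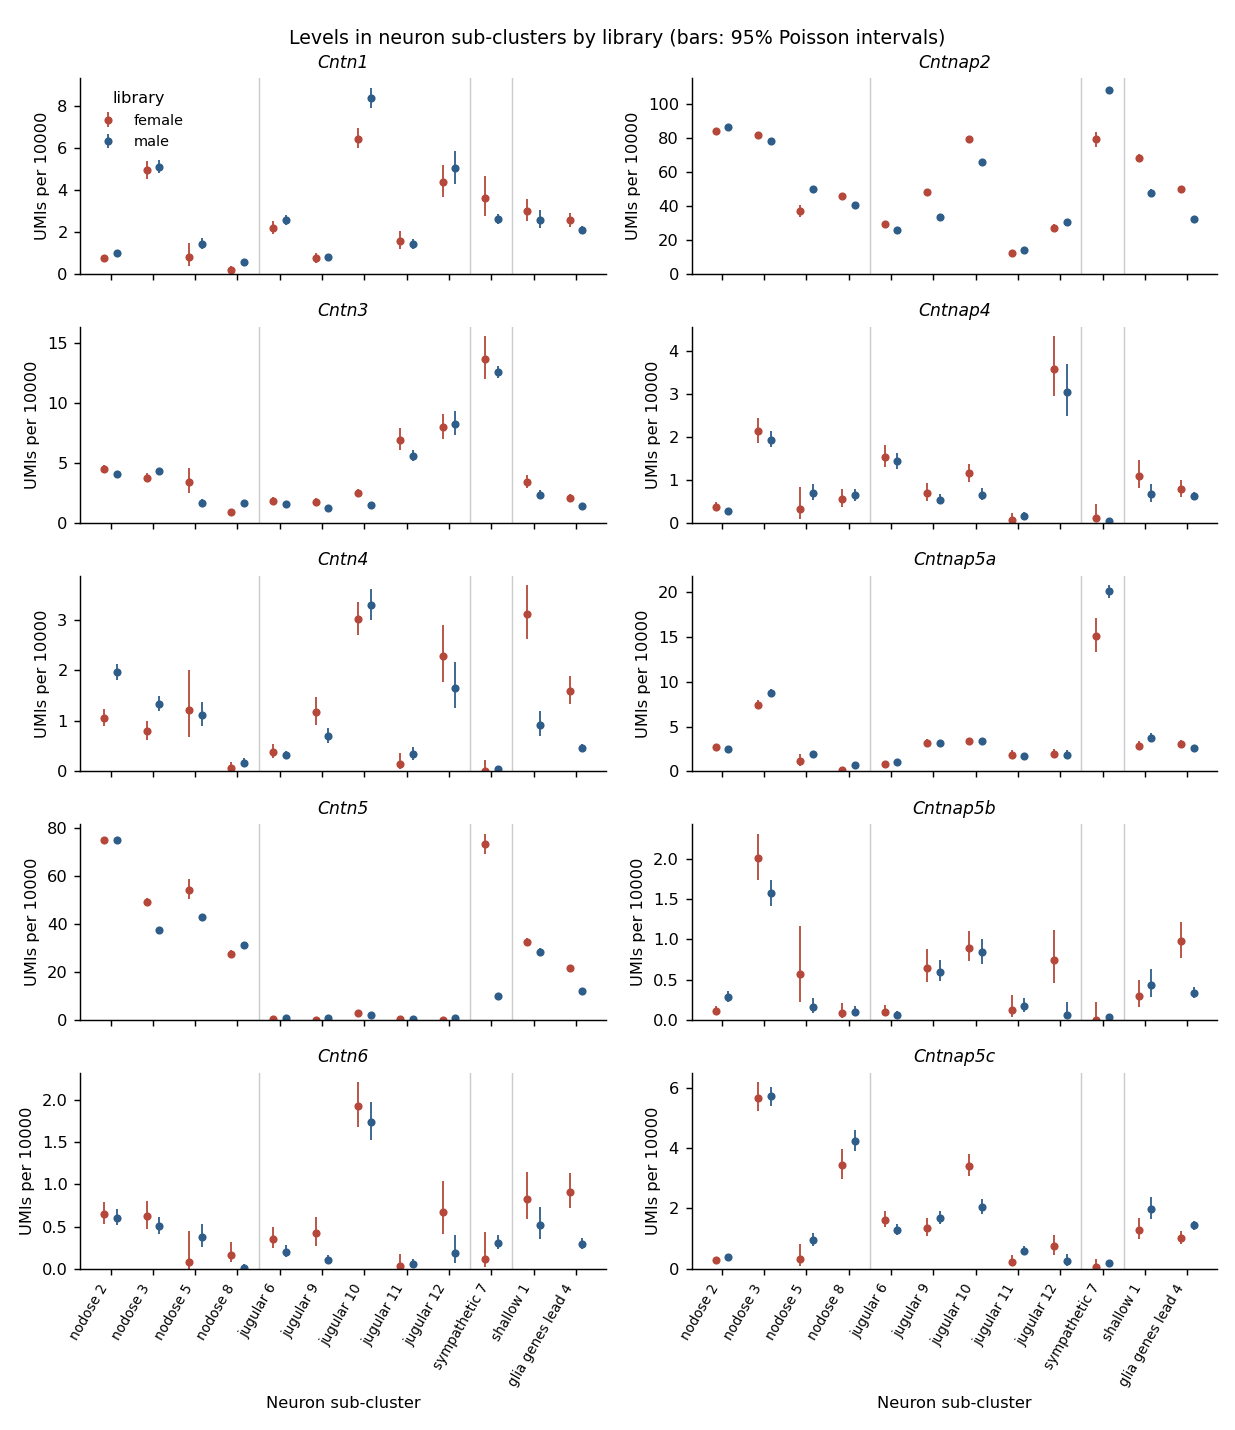
Levels of each member (UMIs per 10000 UMIs) in the 12 sub-clusters of neuron-like nuclei, female library in red and male in blue, with 95% Poisson intervals and grey lines between nodose, jugular, sympathetic and unnamed sub-clusters. *Cntn5* is between 27.7 and 75.2 in the nodose sub-clusters and at most 3.09 in the jugular ones, and *Cntn1*, *Cntn4* and *Cntn6* peak in sub-cluster 10 among the named sub-clusters.

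The sympathetic nuclei of sub-cluster 7, whose top genes included the noradrenaline transporter *Slc6a2* and the transcription factor *Hand2*, had another set of members. *Cntnap5a* was at 20.1 UMIs per 10000 in the 136 male nuclei and 15.1 in the 6 female nuclei. *Cntn3* was at 12.6 and 13.7, and *Cntnap2* at 108 and 79.1. Among the 6 female nuclei, the nucleus richest in each gene held 54.9% of the *Cntnap5a*, 45.9% of the *Cntn3* and 37.7% of the *Cntnap2* UMIs. Without it the female levels were 9.16, 9.97 and 66.2. Against nodose-type nuclei, *Cntnap5a* was 5.04-fold and *Cntn3* 3.65-fold higher. *Cntn4*, *Cntnap4* and *Cntnap5b* were nearly absent, with 7, 10 and 7 UMIs in all 142 nuclei, which is 0.0353, 0.0505 and 0.0353 per 10000. *Cntnap5c*, at 0.177, was also the lowest of the 12 sub-clusters. The *Cntn5* level of the 6 female nuclei (73.4) rested on 1 nucleus with 80.8% of their UMIs, and was 17.7 without it, against 9.98 in the male nuclei.

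**Figure D3:**
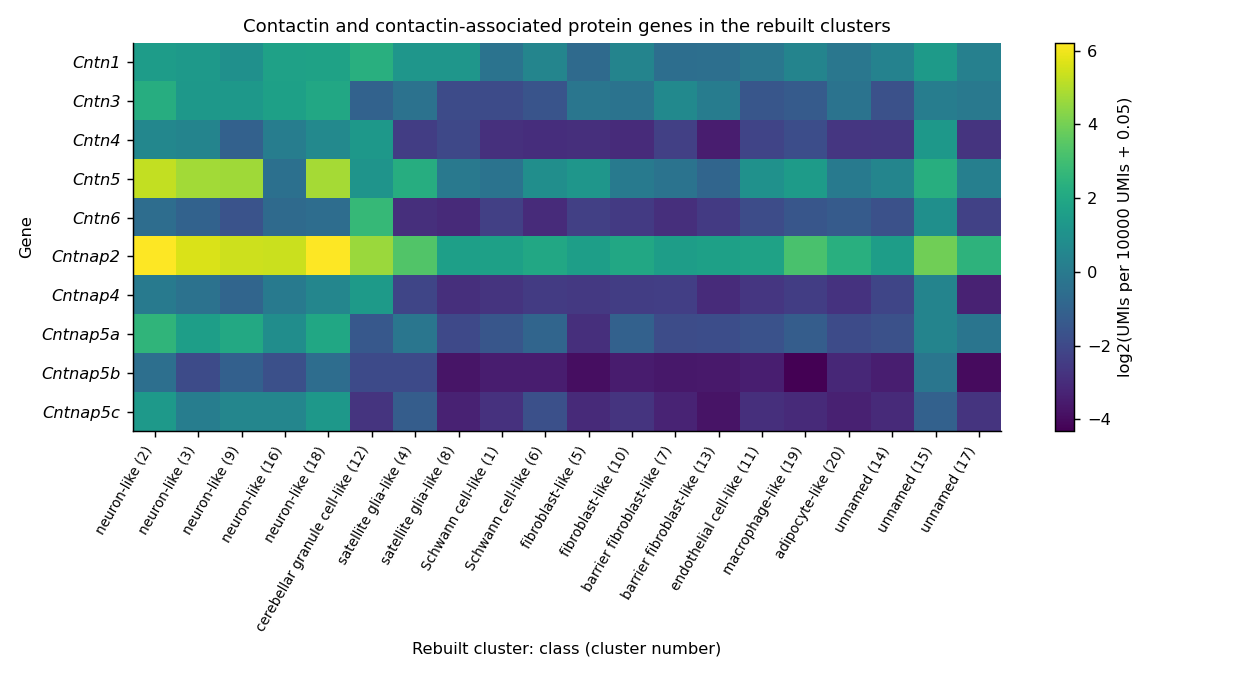
Levels of the members as log2(UMIs per 10000 UMIs + 0.05) in the 20 rebuilt clusters, both libraries together, with the class and number of each cluster below its column. *Cntn5* is bright in neuron-like clusters 2, 3, 9 and 18 and dark in cluster 16, where it was at 0.694 UMIs per 10000, and *Cntn6* is brightest in cluster 12.

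Among glia, 5 members (*Cntn1*, *Cntn3*, *Cntn5*, *Cntnap2* and *Cntnap5b*) were at least 2-fold lower in Schwann cell-like than in satellite glia-like nuclei, and none was 2-fold higher. Of 13925 genes, 8.75% were at least 2-fold lower and 6.28% at least 2-fold higher. The libraries filled these classes from different clusters, with 525 female and 167 male nuclei in Schwann cell-like cluster 1, 17 and 529 in cluster 6, 55 and 546 in satellite glia-like cluster 4 and 235 and 224 in cluster 8. These levels were low and the count was not firm. It was 0 when every nucleus counted alike, and 3 without the nucleus richest in each member. *Cntnap5b*, at 44 UMIs in satellite glia-like nuclei, owed 59.1% of them to 1 nucleus.

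In satellite glia-like nuclei *Cntnap2* (7.07), *Cntn5* (3.0) and *Cntn3* (0.501) were not above macrophage-like nuclei beyond counting error (9.14, 2.68 and 0.352). This turned for *Cntnap2* and *Cntn5* without the richest nucleus of each class, with 6.70 against 3.40 and 2.47 against 1.22. *Cntn1* was above, by 1.79-fold (log2 0.84, interval 0.49 to 1.21). It was at 2.40 UMIs per 10000 (interval 2.12 to 2.72) in female and 2.26 (2.07 to 2.45) in male satellite glia-like nuclei. Schwann cell-like nuclei had 0.812 and 1.10, and macrophage-like nuclei 1.14 and 1.42. Thinned to 1000 UMIs, 17.3% of satellite glia-like nuclei held a UMI of it, close to the 18.7% of neuron-like nuclei and above the 9.17% of Schwann cell-like and 11.4% of macrophage-like nuclei. As deposited the 4 shares were 36.8%, 53.0%, 19.5% and 20.1%.

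The proportion of *Cntn1* to *Cntnap2* in the pooled neuron-like class was not kept in any other class. Per 100 UMIs of *Cntnap2*, neuron-like nuclei held 4.46 (female) and 4.65 (male) UMIs of *Cntn1*. Neurons were not alike in this, with 2.57 and 3.14 in nodose-type and 7.24 and 9.69 in jugular-type nuclei. Sub-cluster 12 held 294 UMIs of *Cntn1* beside 1794 of *Cntnap2*, and sub-cluster 2 held 408 beside 38240. In satellite glia-like cluster 8, whose top genes included *Col28a1* and *Ptprz1*, there were 123 (interval 99.3 to 152) and 51.4 (42.3 to 62.4). In satellite glia-like cluster 4, led by *Ednrb*, there were 12.8 (9.57 to 16.9) and 25 (22.3 to 27.9). Endothelial cell-like (29.6 and 23.1), fibroblast-like (20.4 and 31.1) and barrier fibroblast-like nuclei (20.9 and 22.6) lay below cluster 8 of the same library. Macrophage-like nuclei had 35.2 (22.6 to 53.6) and 9.74, the latter close to the male jugular-type value and with 76.1% of the *Cntnap2* UMIs in 1 nucleus. The unnamed cluster 14 had 43.3 (31.9 to 58.3) and 40.4 (23.1 to 68.2). Schwann cell-like cluster 6 had 73.7 (34.2 to 155) in 17 female nuclei and 32.1 in male nuclei. Counted in UMIs, without scaling for gene length (291 kb for *Cntn1*, 2245 kb for *Cntnap2*), *Cntn1* exceeded *Cntnap2* in female nuclei of cluster 8. The interval of that ratio held 100, and in male nuclei of cluster 8 *Cntn1* was below *Cntnap2*.

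Outside neurons and glia, *Cntn3* stood out in barrier fibroblast-like nuclei. It was at 1.29 UMIs per 10000 (interval 1.10 to 1.5) in female and 1.35 (1.18 to 1.54) in male nuclei, against 0.366 and 0.339 in macrophage-like nuclei. At 1000 UMIs a nucleus 10.1% of them held a UMI, against 2.57% of macrophage-like nuclei, and as deposited 21.3% against 4.76%. The fibroblast-like class had 0.769 and 0.827. No other member was higher in barrier fibroblast-like than in macrophage-like nuclei beyond counting error.

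The cerebellar granule cell-like nuclei of cluster 12 had a set of their own. *Cntn6*, a contactin known from the cerebellum, was at 6.62 UMIs per 10000 (interval 6.16 to 7.11) in 384 female and 6.20 (4.21 to 8.81) in 24 male nuclei. That was 12.7-fold above neuron-like nuclei. *Cntnap4* (2.60), *Cntn4* (2.44) and *Cntn1* (4.94) were also above their neuron-like levels, by 3.04-, 2.22- and 1.85-fold, and these 4 were the members not highest in neuron-like nuclei. *Cntnap5a*, *Cntnap5c*, *Cntn5* and *Cntn3* were 0.0753-, 0.053-, 0.0818- and 0.125-fold of the neuron-like level. In the unnamed cluster 15, whose top genes *Pou1f1* and *Pomc* are pituitary genes, *Cntn4* (2.38) and *Cntn6* (1.85) were likewise above their neuron-like levels. Neuron-like nuclei held 0.728 (female) and 0.427 (male) of *Cntn6*, and whether RNA from granule cells took part in that difference was not tested.

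Between the libraries, no member differed 2-fold within neuron-like nuclei. Of 17496 genes, 2.63% were at least 2-fold higher and 1.35% at least 2-fold lower in the male library. The largest differences were in *Cntn6* (log2 male over female -0.77, interval -0.93 to -0.61) and *Cntnap5a* (log2 0.57, interval 0.50 to 0.63). The makeup of the class also differed between the libraries, and its part in these differences was not tested. Sympathetic nuclei, the type richest in *Cntnap5a*, were 136 of 1601 male but 6 of 671 female neuron-like nuclei. Within nodose-type nuclei *Cntnap5a* was at 4.0 in male and 3.68 in female nuclei (log2 0.12), and within jugular-type nuclei at 2.25 and 2.34 (log2 -0.06).

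Within the sensory types, each taken whole, the libraries stayed close for *Cntn5*, *Cntn1* and *Cntn3*, with log2 values of male over female between -0.30 and 0.21. For *Cntn5* this did not hold inside the jugular type. Sub-clusters 6, 9 and 12 were at 0.264, 0.0619 and 0.202 UMIs per 10000 in the female library and at 1, 0.894 and 0.985 in the male one. Sub-cluster 10 was at 3.09 and 2.30, and sub-cluster 11 at 0.246 and 0.29. In jugular-type nuclei *Cntn6* was lower in the male library (log2 -0.81, interval -1.05 to -0.57), and *Cntnap4*, *Cntnap5c*, *Cntnap2*, *Cntnap5b* and *Cntn4* were lower by 0.51, 0.49, 0.44, 0.44 and 0.41 on the log2 scale. Sub-cluster 10 made up 40 of 182 female and 62 of 374 male jugular-type nuclei, and its part in these values was not tested. It held 209 of 289 *Cntn6* UMIs in the female and 234 of 294 in the male library. Inside it *Cntn6* was at 1.93 (female) and 1.74 (male) and *Cntn4* at 3.02 and 3.29. *Cntnap4*, *Cntnap5c*, *Cntnap2* and *Cntnap5b* were lower there in the male library too. *Cntn4* was higher in male nodose-type nuclei (1.34 against 0.823, log2 0.70, interval 0.50 to 0.90). Counting error does not cover the difference between pools of mice, so none of these can be read as a difference between sexes.

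Partner genes were taken from a list of 32 that code for further contactin-family members, binding partners, and proteins of the node and its neighbours. Of these, 9 were at least 2-fold higher in neuron-like than in glia-like nuclei, 7 were at least 2-fold lower and 16 lay between, with a median log2 ratio of 0.09. Of all genes tested, 17.8% were at least 2-fold higher and 15.5% at least 2-fold lower. *Dlg2*, a scaffold of Kv1 channels, was 6.80-fold, the ankyrin *Ank2* 4.56-fold, *Epb41l3* (protein 4.1B, which links contactin-associated proteins to the cytoskeleton) 3.35-fold and the LGI receptor *Adam22* 3.10-fold higher.

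Of the 3 family members outside the 10, *Cntn2* was at 0.802 UMIs per 10000 in neuron-like and 0.379 in glia-like nuclei (2.12-fold). *Cntnap1* was at 0.199 and 0.190, so that the paranodal partner of CNTN1 showed no difference larger than counting error (log2 0.07, interval -0.22 to 0.36). *Cntnap3* was low but 6.14-fold higher in neurons, and 8.77-fold higher in jugular-type than in nodose-type nuclei (263 against 35 UMIs). The latter fold was not computed for each library or without jugular-type sub-cluster 10. At the glial end were *Gldn*, *Lgi4* and *Kcna1*, chosen for mention after their values were seen, with log2 values of -3.92, -3.66 and -2.52. *Gldn* and *Lgi4* code for secreted Schwann cell proteins. *Ptprz1*, a receptor phosphatase that binds CNTN1, was chosen in the same way and was at 6.52 in satellite glia-like nuclei against 0.445 in Schwann cell-like and 0.747 in neuron-like nuclei.

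**Figure D4:**
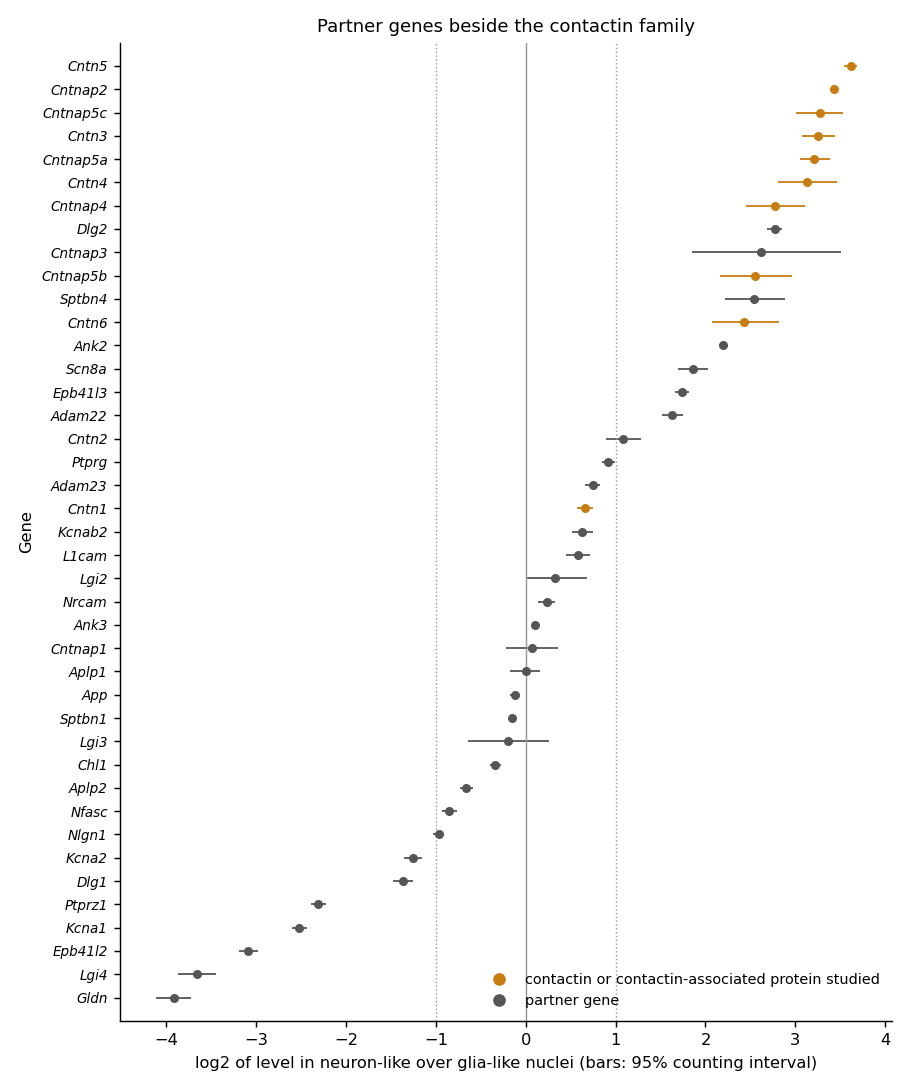
log2 ratio of the level in neuron-like over glia-like nuclei for the 10 members (orange) and 31 partner genes (grey), with 95% counting intervals and dotted lines at 2-fold. The members lie between 2.43 and 3.62 except *Cntn1* at 0.66, and the partner genes spread from -3.92 (*Gldn*) to 2.77 (*Dlg2*).

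Between jugular and nodose types, 4 partner genes were at least 2-fold higher, 3 were at least 2-fold lower and 25 lay between. Between the libraries within neuron-like nuclei, none of the 32 differed 2-fold, where 2.63% of all genes were at least 2-fold higher and 1.35% at least 2-fold lower in the male library.

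The genes most like each member in level across the 20 clusters were sought among 10532 genes with at least 500 UMIs. These correlations of log2 levels describe the same clusters, libraries and depths and carry no test. *Cntn5* was most like *Gm43122* (r = 0.961), *Crhr2*, a receptor for urocortins (0.936), and *Slc44a5* (0.927). *Cntnap2* was most like *Map7* (0.965), *Ctnna2* (0.963) and *Nrg3* (0.961). *Cntnap5a* was most like *Gpr149* (0.974) and *Cntnap5c* most like *Elavl4* (0.974), a neuronal RNA-binding protein. *Cntnap5b* was most like *Fam155a* (0.938).

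*Cntn4* and *Cntnap4*, both high in cluster 12, shared *Gpr158* among their closest genes (0.958 and 0.972), behind *Nrxn3* (0.964) and *Tmem63c* (0.978). *Cntn6* was most like *Tmem108* (0.952) and *Cntn1* most like *Coro2b* (0.925). *Cntn3* was most like *Fmn1* (0.939), followed by the partner gene *Ank2* (0.928).

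*Cntn3* overlaps an RNA gene on the opposite strand, *4930587E11Rik*, at 102266100 to 102336674 of chromosome 6. It had 2846 UMIs, the most of any gene overlapping a member. In neuron sub-clusters it was highest in sub-clusters 7 (2.73 UMIs per 10000), 12 (2.22) and 11 (1.99), the same 3 that were highest in *Cntn3*. Per 100 UMIs of *Cntn3* it held between 18.2 and 35.1 UMIs in the 12 sub-clusters. In barrier fibroblast-like nuclei it held 11.4 per 100, and in macrophage-like nuclei it had no UMI, which allows up to 0.0528 per 10000. The 3′ kit keeps strand, but none of the sources used here gives the strand setting of the counting, so some UMIs of the pair may not be told apart. *Gm45904* (399 UMIs) overlaps the end of *Cntnap4* and *Gm32710* (45 UMIs) the start of *Cntn5*, both on the opposite strand. No gene in the count table overlapped the other 7 members.

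**Figure D5:**
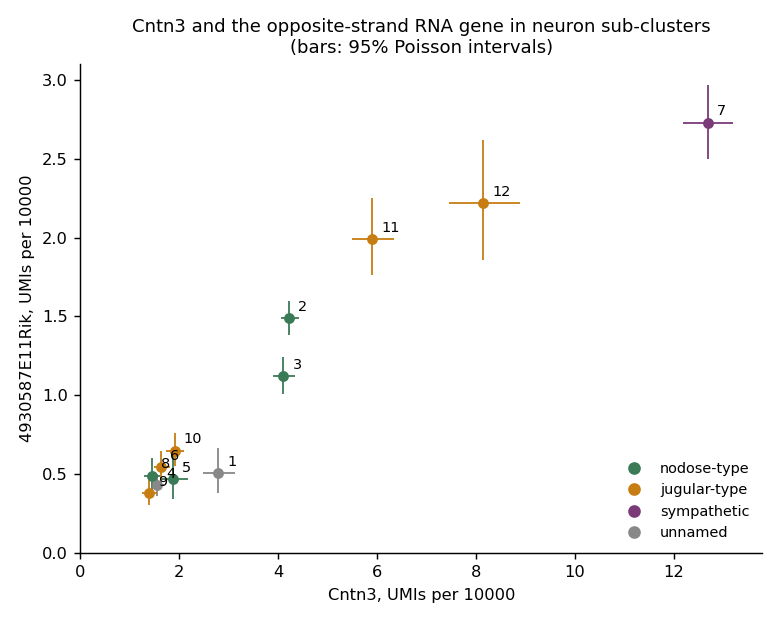
Level of the opposite-strand RNA gene *4930587E11Rik* against that of *Cntn3* (both in UMIs per 10000 UMIs) in the 12 numbered neuron sub-clusters, both libraries together, coloured by type, with 95% Poisson intervals. Sub-clusters 7, 12 and 11 lie highest on both axes, with 12.7, 8.15 and 5.91 of *Cntn3*.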

How the data were processed

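The authors deposited one table of UMI counts for both libraries, made with Cell Ranger on mm10 with intronic reads counted. Per the study's methods, barcodes were cleaned of debris by DIEM and by minimum genes and UMIs, and the libraries were aggregated to equal mapped reads, which thins the deeper one. No column of per-sample values was left unused (0). The barcode suffix was assigned to a sex by the number of nuclei the study gives for each library, and checked by *Xist* (13424 UMIs in the female, 7 in the male library) and *Uty* (1 and 4677).

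Counts were analysed as deposited in Python 3.11.15 with scipy 1.17.1, scikit-learn 1.9.0 and igraph 0.11.9. Nuclei were clustered on 23555 genes, 10 principal components and 243 neighbours, aiming at 20 clusters. The 48 genes left out were the members, partner genes and sex-linked genes. Neuron-like nuclei were clustered again (20 components, 30 neighbours). A class was named where its marker list led with at least 3 markers at 1.5-fold, and a sub-cluster by its nodose or jugular markers against sub-clusters led by the opposite list. These limits were set after seeing the clusters, and names may differ from those of the study. No doublet caller was run.

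A level is the sum of UMIs of a gene per 10000 UMIs of the group. Intervals (95%) are exact Poisson, or exact conditional binomial for ratios, and the pseudocount was 0.05 for log2 levels. They cover counting error only, and 3 UMIs were taken as what a count of 0 allows. With 1 library per sex there was no test, and a gene with at least 20 UMIs was counted as different at 2-fold. Folds and intervals were checked on simulated Poisson sums. These hold no spread between nuclei, so the check does not show how the intervals fare with such spread. Thinning drew 1000 UMIs from each nucleus, leaving out shallower nuclei (1 neuron-like, 7 glia-like, 0 nodose-type and 0 jugular-type). The members, marker and partner lists were chosen with earlier results of these data known. Genes named are all members, the partner genes past 2-fold among the 12 with most UMIs, *Cntn2*, *Cntnap1* and *Cntnap3*, and the genes of most like pattern, except that 1 partner gene is counted but not reported here. Others are leading genes of a cluster, or are marked as chosen after their values were seen.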

Additional observations from a re-analysis of the deposited data

Results flagged for a closer look

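Several members moved one way in the female library and the other way in the male one. The difference between libraries was not tested, as each sex had 1 library. *Cntn4* was higher in jugular-type than in nodose-type nuclei of the female library (log2 0.93, interval 0.71 to 1.15) and lower in those of the male library (-0.18, interval -0.32 to -0.04). Jugular-type sub-cluster 10 held 326 of the 510 jugular-type *Cntn4* UMIs in the female library and 442 of 684 in the male one. Without it the log2 value was not computed for each library, so the opposite directions may not hold for the other jugular-type sub-clusters.

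The other 5 lay between Schwann cell-like and satellite glia-like nuclei, where the members are sparse. Most Schwann cell-like nuclei lay in cluster 1 in the female library (525 of 542) and in cluster 6 in the male one (529 of 696), and 273 female and 53 male nuclei of cluster 14, with the glial genes *Cdh19* and *Lgi4* among its top genes, stayed unnamed. The part of this in the differences was not tested. For *Cntn3* the log2 value was 0.12 (interval -0.75 to 1.02) in the female and -1.28 (-1.78 to -0.80) in the male library. For *Cntn6* it was 1.19 (0.10 to 2.41) and -0.48 (-1.83 to 0.77). For *Cntnap4* it was 0.21 (-1.01 to 1.48) and -0.52 (-1.40 to 0.31), for *Cntnap5a* 0.05 (-0.67 to 0.77) and -0.61 (-1.03 to -0.21), and for *Cntnap5b* 0.35 (-1.73 to 2.61) and -2.30 (-3.83 to -1.05). In each of these 5, the interval held 0 in at least 1 library.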

How the results depend on the processing

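The 9 members higher in neuron-like nuclei stayed within 1.5 times of that count under every alternative run. The 6 members highest in neuron-like nuclei, for which no share of all genes is given, did likewise. With the macrophage-like level taken off, only 26 of 40 ratios could be formed. A member at or below that level in 1 of the 2 groups alone counted as past 2-fold, as with *Cntnap2* and *Cntn5* in glia-like nuclei. Of the macrophage-like *Cntnap2* UMIs, 63.2% lay in 1 nucleus. Members 2-fold different between jugular and nodose types (1) numbered 2 as a mean over nuclei, 2 at 1000 UMIs, 3 in the male library alone, 4 with the macrophage-like level taken off and 6 without jugular-type sub-cluster 10, chosen after seeing the data. Members 2-fold different between Schwann cell-like and satellite glia-like nuclei (5) numbered 0 as a mean over nuclei, 2 at 1000 UMIs, 3 in the female library alone, 2 at a higher resolution, 2 by the leading list of single nuclei and 3 without the richest nucleus of each class, an alternative chosen after seeing the data. There, the female library alone turned *Cntn3* to 0.12 and *Cntnap5b* to 0.35 on the log2 scale. Members 2-fold different between libraries (0) numbered 1 with the macrophage-like level taken off, *Cntn6* at -1.75. The causes were not tested, and the share of all genes past 2-fold was not computed under these alternatives. Naming single nuclei by their leading list moved *Cntn5* between jugular and nodose types from -5.54 to -3.80 on the log2 scale, and 14 of 40 values by over 1.5 times. Taking off the macrophage-like level moved neuron-like over glia-like from 3.25 to 6.86 for *Cntn3*, 3.21 to 5.61 for *Cntnap5a* and 0.66 to 1.78 for *Cntn1*. Restricting neurons to named sensory sub-clusters, also chosen after seeing the data, moved 0 of 20 values by over 1.5 times. Of those 20, 12 still fell outside the counting interval of the main value. The glial levels, of 27 to 2483 UMIs a member in satellite glia-like nuclei, limit what can be read there. No paired analysis was possible because each sex had 1 sample.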
